A study of Mus musculus with 4 samples.

Results

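The conserved oligomeric Golgi (COG) complex is a vesicle tether of 8 subunits, and its 8 genes, Cog1 to Cog8, were followed here through a list of DNA regions bound by the transcription factor XBP1s. Members were taken by gene name: a peak belonged to a member when the authors' annotation named that member as its nearest gene. All 8 genes were found in the RefSeq table, among 21900 protein-coding genes, and 5 of the 4890 listed peaks carried a member's name. XBP1s, the spliced and active form of XBP1, was precipitated from natural killer (NK) cells of mouse spleen that had been given 50 ng/ml of the cytokine IL-15 for 1 h. The series holds 2 XBP1s immunoprecipitations and 2 inputs, the chromatin kept aside before precipitation. All 4 libraries came from C57BL/6 mice that carried an Il15 transgene and floxed Xbp1 alleles (Il15TgXbp1f/f). The labels name no Cre and no promoter for the transgene, and give no age, so every value describes cells with the transgene and none compares genotypes. The peaks are 1 combined list with no value for any single library, so no peak has a replicate error, and the depth is unknown. The authors' peak score is 0 for every peak. The width of a listed interval was the only size available, and it is not a measure of signal.

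The COG complex works at the Golgi apparatus. It captures vesicles that carry resident enzymes, among them glycosyltransferases, back from later to earlier Golgi cisternae, and hands them to the SNARE proteins that fuse membranes. Its subunits form lobe A (Cog1 to Cog4) and lobe B (Cog5 to Cog8), which are bridged through Cog1 and Cog8. In humans, inherited loss of several of the subunits causes congenital disorders of glycosylation. XBP1s is known for inducing genes of the endoplasmic reticulum and the secretory pathway, and the comparison made here is between the lobes and with other genes that act around the Golgi.

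XBP1s peaks lay at the start sites of 6 of the 8 COG genes, although the authors' annotation credited only 5 of them. Cog3 and Cog4 of lobe A and Cog6, Cog7 and Cog8 of lobe B each had 1 assigned peak, centred within 1000 bp of the transcription start site. Cog5, of lobe B, had none assigned, but its start lay inside a peak assigned to its neighbour Dus4l. Cog1 and Cog2, both of lobe A, had no peak near their starts. By assigned peaks within 5000 bp of the start, the count was therefore 5 of 8 members, 2 of 4 in lobe A and 3 of 4 in lobe B, against 15.9% of all protein-coding genes (3487 of 21900). By any peak within 1000 bp of a start listed in RefSeq, it was 6 of 8 members, 2 of 4 in lobe A and 4 of 4 in lobe B, against 18.8% of 17492 protein-coding genes with a listed start. The 8 genes are not replicates of one another and were picked with earlier results of these data known, so neither the lobes nor the complex and other genes were set against each other in a test. Positions are 1-based on mm10 as deposited, and RefSeq positions are from GRCm38.p6, the assembly of that build.

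**Figure D1:**
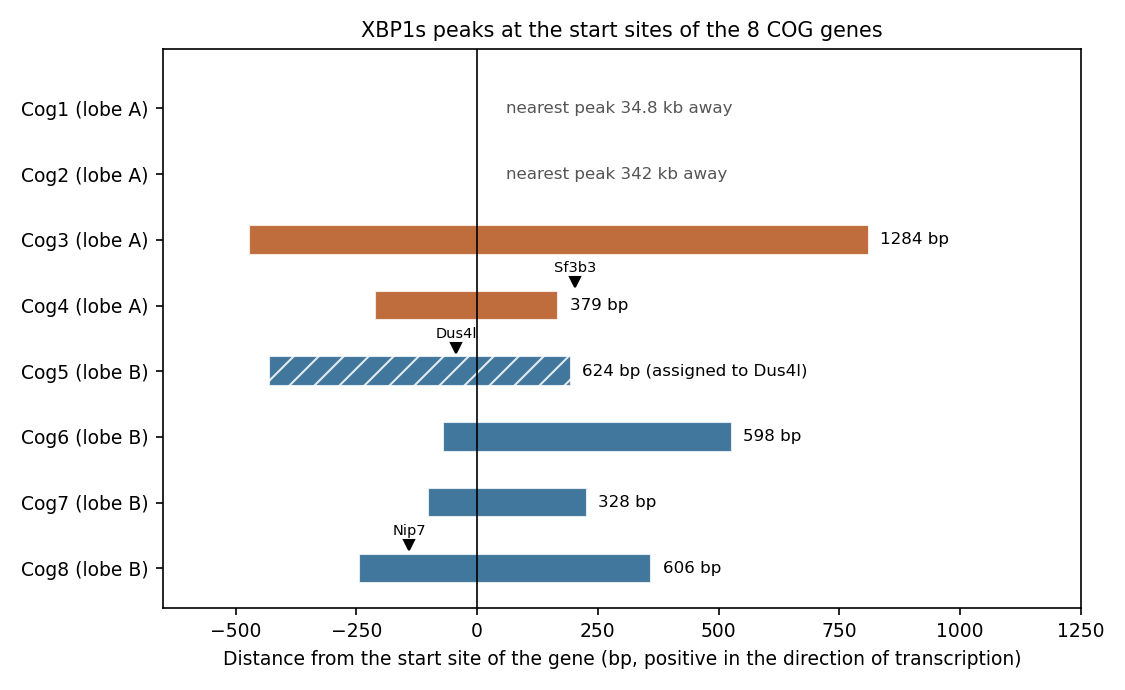
Each bar is the listed XBP1s peak over a COG start site, drawn to scale from the start (0) in the direction of transcription, in bp; orange is lobe A and blue is lobe B, triangles mark the start of a neighbouring gene, and hatching marks the peak assigned to that neighbour. Bars cross the start of 6 genes, from 328 bp at Cog7 to 1284 bp at Cog3, while the nearest peaks of Cog1 and Cog2 lie 34.8 and 342 kb away.

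In lobe A, Cog3 had the widest peak of the complex. It spanned 1284 bp (chromosome 14, 75753683 to 75754966), reached 473 bases upstream and 810 bases downstream of the start, and was annotated to exon 1 of 23. Cog3 ranked 133 by width among the 3487 genes with an assigned peak, wider than 96.2% of them and 3.13 times their median of 410 bp (interquartile range 281 to 625 bp). No other listed start of a protein-coding gene lay within 1000 bp of it, and the next peak was 80.1 kb away. The 250 bases upstream of its start, all inside the peak, are printed with the sequences further on because they hold the only GACGTG match in the 300-base promoter windows searched at the COG genes.

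Cog4, the subunit that binds the SNARE syntaxin 5 and its regulator Sly1, had a narrower peak of 379 bp (chromosome 8, 110846389 to 110846767), annotated as promoter and centred 22 bases from the start on its upstream side. This was below the median width, with 44.3% of genes narrower. RefSeq lists another Cog4 start, at 110847024, which lay 257 bases outside the peak. Sf3b3, which encodes a subunit of the SF3B splicing complex and runs on the other strand, starts 203 bp inside Cog4, 36 bases beyond the edge of the same peak. Sf3b3 had no peak assigned to it.

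Cog1 and Cog2 were the members with no peak. The genes are also known as Ldlb and Ldlc, after hamster cell mutants that lost LDL receptor function through faulty glycosylation. The peak nearest to the start of Cog1 (113649529 on chromosome 11) was 34819 bases away, at D11Wsu47e, and was 217 bp wide. The start of the zinc transporter gene Slc39a11 on the other strand, 563 bp inside Cog1, lay 34256 bases from the nearest peak, and the peak assigned to Slc39a11 was 83.7 kb from the start of Cog1. The peak nearest to the start of Cog2 (124520767 on chromosome 8) was 342028 bases away, at Gnpat, and none touched either gene. With no value below the authors' calling limit in the list, these starts can be said only to lie outside the listed peaks, and weaker binding there was not measured.

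In lobe B, 4 of 4 starts lay inside a peak, including that of Cog5. Cog6 had a peak of 598 bp (chromosome 3, 53016697 to 53017294), placed mostly inside the gene, with 71 bases upstream of the start and 526 downstream. It was annotated to intron 1 of 18, and the authors' detailed column calls it CpG. Cog7, in which human mutations cause a disorder of glycosylation, had the narrowest peak of the complex, 328 bp (chromosome 7, 121981467 to 121981794), annotated as promoter and wider than 34.2% of genes. Neither gene had another protein-coding start within 1000 bp.

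Cog8, the subunit that links lobe B to Cog1, had a peak of 606 bp (chromosome 8, 107056377 to 107056982). Nip7, a gene of ribosome assembly, starts 140 bp away in the opposite direction, inside the same peak, and had no peak of its own. The peak's centre lay 57.5 bases from the start of Cog8 and 197.5 from that of Nip7, and the authors' promoter label for it cites a Nip7 transcript. A further peak of 364 bp (107048259 to 107048622) lay 87 bases beyond the other end of Cog8. The authors annotated it as the termination site of Cog8 and assigned it to Pdf, which encodes a mitochondrial peptide deformylase, 174 bp downstream of the Pdf start. Cog8 is the shortest COG gene, at 8.03 kb, and both of its ends thus lay in or within 87 bases of a peak.

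The Cog5 start (31654869 on chromosome 12) lay 430 bases from the upstream edge and 193 bases from the downstream edge of a 624 bp peak (31654439 to 31655062). Dus4l, which encodes a tRNA dihydrouridine synthase, starts 43 bp away on the other strand, inside the same peak. The RefSeq gene record of Cog5 begins further upstream, at 31654819, so by that record Cog5 overlaps Dus4l and holds the stretch between the starts. The centre of the peak was 75.5 bases from the Dus4l start and 118.5 from the Cog5 start, so nearest-gene assignment credited Dus4l alone. Over 283 kb of Cog5, the longest COG gene, no other peak was listed. Counted for Cog5, the width would rank as wider than 74.9% of genes, close to Cog8 (73.3%) and Cog6 (72.2%).

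The shared stretches are printed because a peak there cannot be told apart as belonging to either gene. The stretch of 42 bases between the Dus4l and Cog5 starts (chr12:31654827-31654868, plus strand) and that of 139 bases between the Nip7 and Cog8 starts (chr8:107056738-107056876, minus strand) lie wholly inside their peaks. They are given with the 250 bases upstream of Cog3 (chr14:75754494-75754743, minus strand), which has the widest peak, and of Cog2 (chr8:124520517-124520766, plus strand), which has none. Sequences are from RefSeq, GRCm38.p6, 5′ to 3′ on the strand of the COG gene, and capitals mark matches on either strand to the XBP1 core ACGT, to the half-site CCACG of the endoplasmic reticulum (ER) stress element and to GACGTG, the core of the unfolded protein response (UPR) element.
Between Dus4l and Cog5: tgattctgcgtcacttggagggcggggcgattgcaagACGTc
Between Nip7 and Cog8: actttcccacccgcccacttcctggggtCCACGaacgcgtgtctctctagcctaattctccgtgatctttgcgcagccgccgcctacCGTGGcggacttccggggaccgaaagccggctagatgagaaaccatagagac
Upstream of Cog3: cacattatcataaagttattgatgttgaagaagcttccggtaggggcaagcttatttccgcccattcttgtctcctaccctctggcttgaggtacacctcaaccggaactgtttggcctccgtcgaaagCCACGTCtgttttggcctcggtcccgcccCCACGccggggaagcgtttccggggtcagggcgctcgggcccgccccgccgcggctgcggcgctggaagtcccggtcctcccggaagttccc
Upstream of Cog2: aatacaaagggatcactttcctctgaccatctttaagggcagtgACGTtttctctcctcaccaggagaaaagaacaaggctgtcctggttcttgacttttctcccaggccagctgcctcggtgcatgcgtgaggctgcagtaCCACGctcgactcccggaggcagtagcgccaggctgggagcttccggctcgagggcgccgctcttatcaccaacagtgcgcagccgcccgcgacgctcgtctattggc

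Several COG genes share their start region with another gene. Of the 6 members with a start inside a peak, 3 had the start of another protein-coding gene on the other strand within 1000 bp: Cog4, Cog5 and Cog8. Over all genes, this held for 25% of the 2228 with a start inside a peak and for 6.92% of the 15264 without. Among the members without a peak it held for Cog1 and not for Cog2. A start inside a peak with no peak assigned to the gene, as at Cog5, was found for 11.7% of the 2228 genes (261 genes). The peaks of Cog4, Cog5 and Cog8 were 379, 624 and 606 bp wide, and those of Cog3, Cog6 and Cog7, which share their starts with no other such gene, 1284, 598 and 328 bp, so the ranges overlapped.

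**Figure D2:**
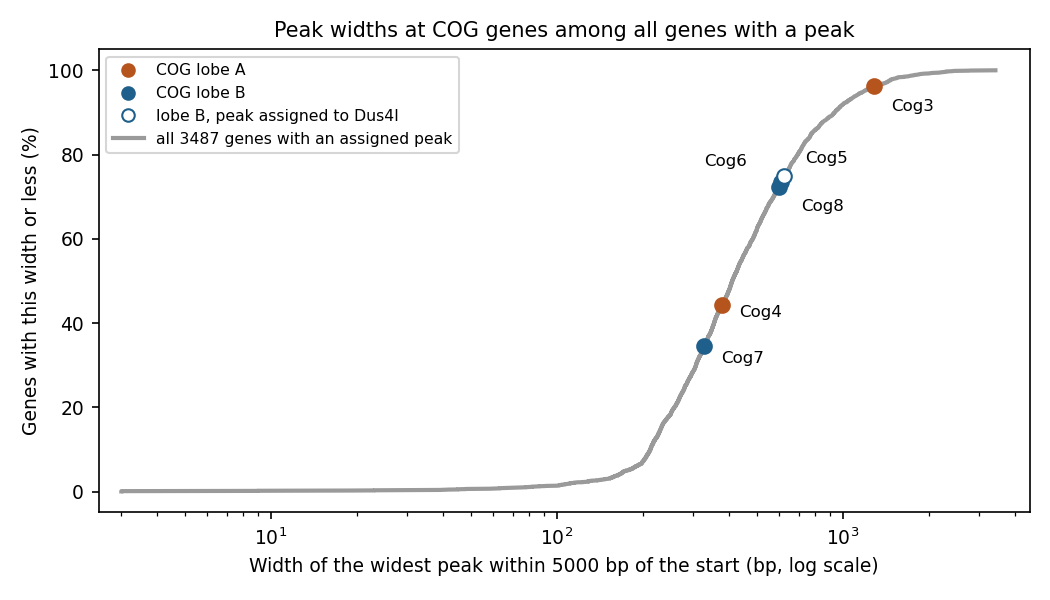
The grey curve gives the share of the 3487 genes with an assigned peak whose widest peak within 5000 bp has at most the width on the x axis (bp, log scale); points are COG genes, orange for lobe A and blue for lobe B, with the open point for the peak assigned to Dus4l. Cog3 stands near the top at 1284 bp, Cog5, Cog6 and Cog8 lie together between 598 and 624 bp, and Cog4 and Cog7 fall below the median of 410 bp.

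The widths of the lobes overlapped. The assigned peaks of lobe A were 1284 and 379 bp wide, and those of lobe B 598, 328 and 606 bp, so the lobe B range of 328 to 606 bp overlapped that of lobe A. The medians were 831.5 bp in lobe A and 598 bp in lobe B, but the lobe A value is the midpoint of its only peaks, Cog3 and Cog4. Cog3 alone exceeded 1000 bp. Over the 5 assigned members the median was 598 bp, and 602 bp with the peak over Cog5. Over all 4890 listed peaks, widths ran from 1 to 3413 bp, with a median of 373 bp. Where an interval is the shared part of several calls, its width is that of the overlap, which the sources used here do not settle. Ranks by width share this limit.

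The centres of the peaks lay on either side of the COG starts, in a share near that of all genes. The centre was downstream at 4 of the 6 members with a start in a peak: Cog6 (227.5 bases), Cog3 (168.5), Cog7 (62.5) and Cog8 (57.5). It was upstream at Cog4 (-22 bases) and Cog5 (-118.5). Over all 2228 genes with a start in a peak, 54.1% had the centre downstream, with a median of 16.5 bases (interquartile range -86.5 to 99). Cog6 and Cog3 lay beyond the upper quartile and Cog5 beyond the lower.

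The promoters of all 8 COG genes, with or without a peak, had a higher CpG ratio than the median promoter (0.574 over 17486 promoters). The measure was observed over expected CpG, in which 1 means as many CpG pairs as the C and G content predicts, in the window from 250 bases before to 50 bases after the start. In lobe A it was 0.732 at Cog1, 0.815 at Cog2, 0.904 at Cog3 and 0.871 at Cog4. In lobe B it was 0.925 at Cog5, 1.07 at Cog6, 1.25 at Cog7 and 1.01 at Cog8. The lobes did not overlap, with all lobe B values above all lobe A values. The order depends on the start chosen, since the other Cog4 start gave 1.04. The RefSeq gene records of Cog1, Cog3, Cog5 and Cog7 also begin upstream of the start used. At Cog1 the record begins at 113649178, so the whole window, from 113649279, lies inside it. Windows at those record ends were not searched. Over all genes, the median was 0.862 for 2228 promoters with a start in a peak (interquartile range 0.742 to 0.978) and 0.482 for 15258 without (0.189 to 0.785).

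Cog1 and Cog2 thus lacked a peak but had a higher CpG ratio than most promoters, with 63.7% and 73.0% of all promoters below them. Cog7, with the narrowest peak, had a higher CpG ratio than 99.7% of promoters. By count its window held 25 CpG pairs, within the range over the members of 21 (Cog1, Cog4 and Cog6) to 28 (Cog3). G and C content ranged from 58.3% to 64.3% in lobe A and from 51.7% to 62.7% in lobe B, and these ranges overlapped. The median was 62.0% for promoters with a start in a peak and 55.0% for those without. How far CpG content enters into which starts have a peak was not tested.

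**Figure D3:**
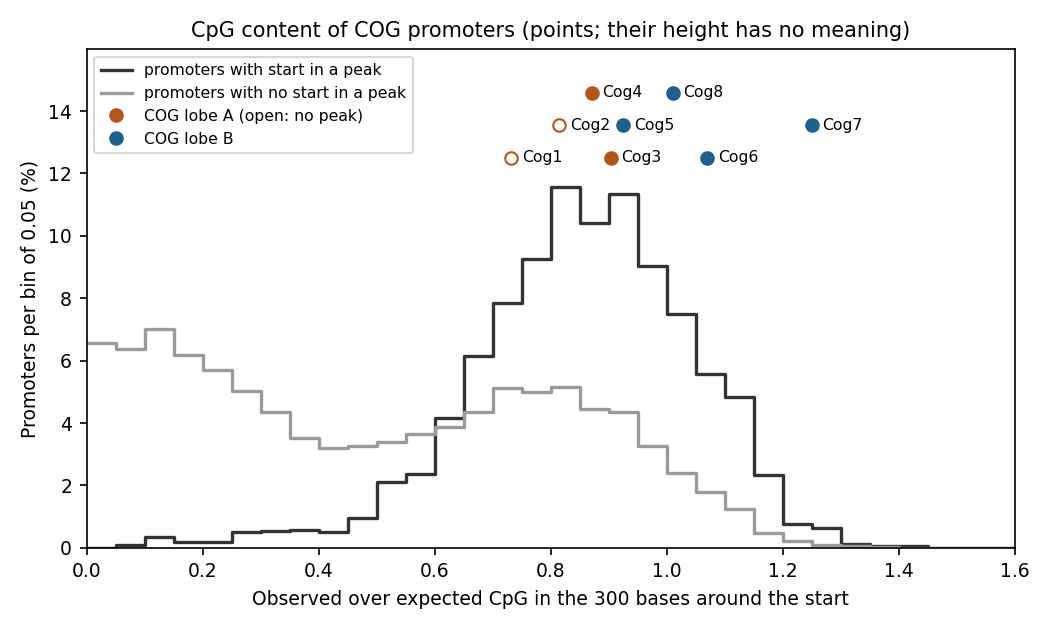
Lines give the distribution of observed over expected CpG (x axis, no unit) as percent of promoters per bin of 0.05 (y axis), black for 2228 promoters with a start in a peak and grey for 15258 without; points above are COG genes, orange for lobe A and blue for lobe B, open where no peak was listed. The lobe A points run from 0.732 to 0.904 and the lobe B points from 0.925 to 1.25. The open points of Cog1 and Cog2 fall in bins with 7.855% and 11.58% on the black line, and 5.112% and 5.151% on the grey.

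Sequence motifs were searched on both strands of the same 300 bases, in 17486 promoters. ACGT, the core of XBP1 and CREB/ATF sites, was found at 6 of 8 members, Cog1, Cog2, Cog3 and Cog4 of lobe A and Cog5 and Cog7 of lobe B. Of all promoters 33.1% held it, 57.4% of those with a start in a peak and 29.6% of the others. At Cog1, Cog2 and Cog7 the match lay outside any peak, 214, 206 and 180 bases before the start. Within 125 bases before to 25 after the start, only Cog3 and Cog5 kept a match, against 20.5% of all promoters.

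CCACG, which is part of the ER stress element and overlaps ACGT where a T follows, was found at 5 members: Cog2, Cog3, Cog4, Cog5 and Cog8. All promoters held it in 37.3% of cases, those with a start in a peak in 59.4% and the others in 34.0%. Cog4 had the most matches, 4, at 182, 156, 91 and 75 bases before the start, and 9 of the 10 matches over the complex lay inside a peak. The exception was at Cog2. This count was largely set by the windows. At Cog3, Cog4, Cog5 and Cog8, 261 to 300 of the 300 bases searched lay inside a peak, and at Cog2 0 did. For the XBP1 core, 4 of 7 matches lay inside a peak. For the other motifs found at several members, the count ran from 2 of 4 to 6 of 7. GACGTG, the core box of the UPR element, was found at Cog3 only, on the reverse strand 120 bases before the start and inside the peak. It overlaps a CCACG match that begins 121 bases before the start, and these letters stand in capitals in the Cog3 sequence above. Of all promoters 7.03% held GACGTG, 17.1% of those with a start in a peak and 5.55% of the others.

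The longer elements were not found in the 300-base window of any COG gene. Peak sequence outside these windows was not searched, and at Cog3 the window covered 300 bases of a peak of 1284 bp. These were the UPR element TGACGTGG (0.698% of all promoters), the ER stress element, in which a CCAAT box is followed after 9 bases by the half-site CCACG (0.16%), its other form, in which ATTGG is followed after 1 base by the same half-site (0.0515%), and the cAMP response element TGACGTCA (2.32%). Such rare letters are missing from most promoters with a peak too: TGACGTGG stood in 2.29% of them. CCGGAAG, a site of ETS factors, was found at Cog2, Cog3, Cog7 and Cog8, against 12.1% of all promoters, 33.7% of those with a start in a peak and 8.9% of the others. GGGCGG, a GC box, was found at 6 members, all but Cog4 and Cog6, against 46.2% of all promoters, 69.3% of those with a start in a peak and 42.8% of the others. CCAAT was found at Cog2, Cog5, Cog6 and Cog8, against 38.9% of all promoters, 40.8% of those with a start in a peak and 38.7% of the others. Around the other Cog4 start, CCGGAAG and CCAAT were found but CCACG was not, so these memberships depend on the start chosen. Cog6, whose start lay in a peak of 598 bp, held neither the ACGT core nor the CCACG half-site, and neither the ETS site nor the GC box, in this window, of which 121 of 300 bases were inside the peak.

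Genes that work with COG were described by the same rule. Neighbouring starts were not described for the genes of any of these lists, so a width given for them may be that of a peak shared with another gene. Of 124 genes in 9 related lists, 53 had an assigned peak within 5000 bp (42.7%), against 15.9% of all protein-coding genes under the same rule. Among SNAREs and their regulators 7 of 14 did, led by Scfd1, which encodes Sly1 (2178 bp, rank 20), and by the SNARE genes Bet1l (1214 bp) and Bet1 (817 bp). The Scfd1 peak was centred 107 bp downstream of the Scfd1 start, but its annotation is a termination site. Stx5a, the syntaxin partner of Cog4, had a peak of 693 bp, so the peaks of both Cog4 partners were wider than that of Cog4 itself (379 bp). Golgins and Golgi matrix genes had peaks in 11 of 15 cases, with Uso1, a tether of arriving vesicles (1090 bp), Gorasp2 (981 bp) and Golga1 (829 bp) the widest. Of 11 RAB GTPase genes matched, 4 had one: Rab2a (1253 bp), Rab1a (1217 bp), Rab14 (648 bp) and Rab6a (469 bp). Rab41, also listed, had no entry in the table.

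Among the vesicle coats and other tethers, 6 of 9 COPI coat genes had a peak, with Cope (1309 bp), Arcn1 (1148 bp) and Copb2 (924 bp) the widest. The other tethers of the family to which COG belongs had 6 of 16, with Nbas (676 bp), Rint1 (609 bp) and Vps52 (473 bp) the widest. By complex, a split chosen after the values were seen, these were 3 of 3 in NRZ, which receives Golgi vesicles at the endoplasmic reticulum (Nbas, Rint1 and Zw10, the last at 169 bp), 2 of 8 in the exocyst and 1 of 5 in GARP and EARP. The TRAPP tethers had 5 of 14, led by Trappc4 (834 bp), Trappc6a (762 bp) and Trappc12 (283 bp). The list for HOPS, CORVET and related proteins of endosomes and lysosomes had 2 of 10, Vps8 (517 bp) and Vps33b (327 bp). Beside the 15.9% of all genes, the assigned counts for the HOPS and CORVET list, for the exocyst and for GARP and EARP are near the background. By listed starts within 1000 bp of any peak, however, the HOPS and CORVET list had 4 of 7. The share of all genes with a listed start was 18.8%. Vps16 and Tgfbrap1 of that list start inside peaks credited to other genes. The 5 assigned COG peaks, of 328 to 1284 bp, had a median of 598 bp. Medians were 348.5 bp for the other tethers of the family, 283 bp for TRAPP, 422 bp for the HOPS and CORVET list and 847.5 bp for COPI. They were 693 bp for SNAREs and their regulators, 548 bp for golgins and matrix genes and 932.5 bp for RAB genes. For the glycosylation enzymes and Golgi homeostasis genes described next they were 622 and 582 bp.

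Of 25 Golgi glycosylation enzymes, the kind of cargo that COG vesicles carry, 5 had a peak (20%), close to the background of 15.9% for all genes. Mgat2, which acts in N-glycan branching, had one of the widest of all (2286 bp, rank 14), followed by St3gal4 (675 bp) and B4galt1 (622 bp). Of 10 genes of Golgi homeostasis or of glycosylation disorders 7 had one, with Slc10a7 (1465 bp), Golim4 (724 bp) and the GDP-fucose transporter gene Slc35c1 (642 bp) the widest. As at Cog5, 5 further genes of these lists started inside a peak that was credited to another gene alone. They were the SNARE gene Gosr2 (1054 bp), the COPI gene Copa (1125 bp), Vps16 (1257 bp), Tgfbrap1 (349 bp) and Man1b1 (395 bp).

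**Figure D4:**
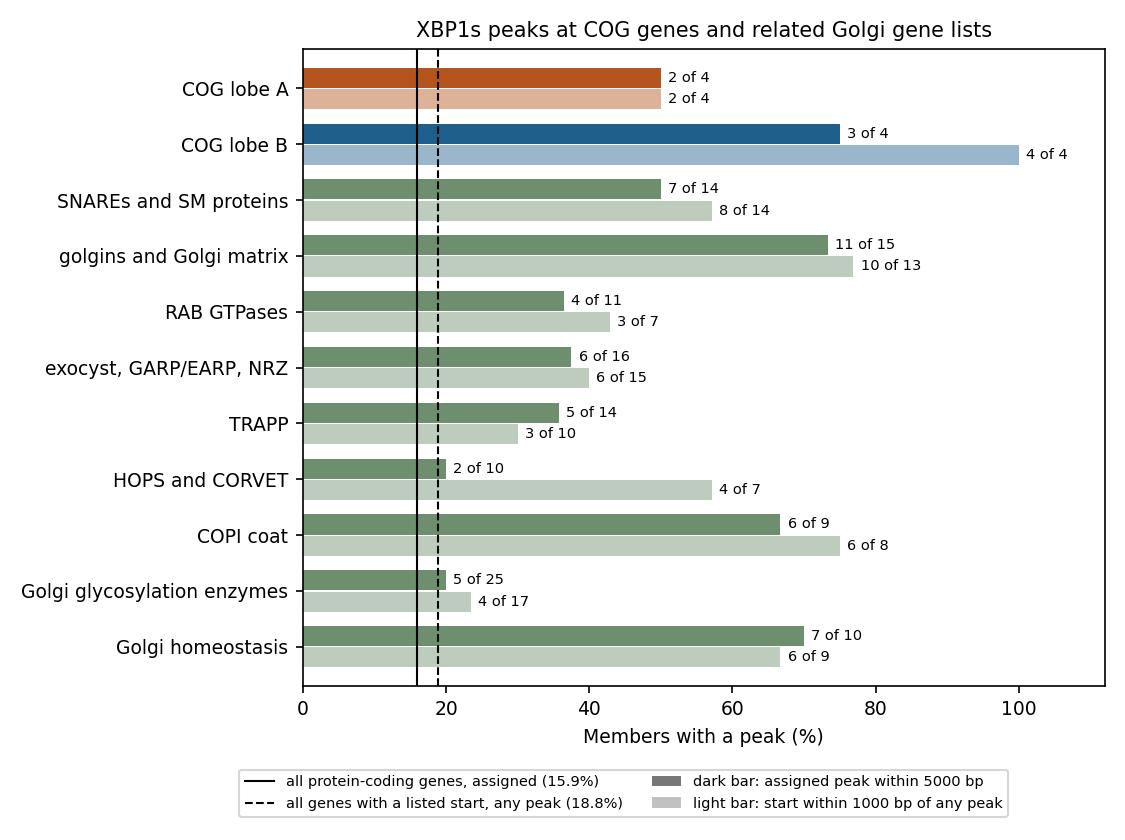
Bars give the percent of each list's members with a peak (x axis), dark for an assigned peak within 5000 bp and light for a listed start within 1000 bp of any peak, with counts beside them; vertical lines give all protein-coding genes under each rule. Lobe B moves to 4 of 4 and the HOPS and CORVET list to 4 of 7 under the light rule, while lobe A stays at 2 of 4.

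The label of the cells could be compared with the peak list only in a limited way, since a peak is not expression. Of 10 NK cell marker genes, Il2rb, Nkg7, Prf1 and Gzmb had an assigned peak within 5000 bp, while Ncr1, Klrb1c, Klrk1, Eomes, Tbx21 and Itga2 had none. Of the markers of other cells that a spleen isolate could hold, 0 of 8 for B cells, 2 of 8 for T cells and 1 of 8 for myeloid cells had one. The share of all protein-coding genes was 15.9%, so in lists this short the counts for the other cells are near the background.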

How the data were processed

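The 4 libraries are not represented singly in the deposited table. HOMER annotated 1 set of intervals on mm10 to make it, per the file header. Tools listed in the submitters' processing notes were MACS2 (2.2.7.1) for peaks, HOMER (4.11 and 4.11.1), the aligner Bowtie2 (2.4.5), and FastQC (0.11.9) and Trim Galore (0.6.7) for the reads. The sources used here do not say how calls were combined. The deposited score is 0 for all 4890 peaks, so width (end minus start plus 1) was used. Distances and annotation classes are the authors'.

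Genes were matched by Entrez number to RefSeq (GRCm38.p6); 166 of 167 list entries matched. Start sites were taken from RefSeq promoter windows (250 bases before to 50 after), listed for 17492 protein-coding genes. Where a gene has several starts, the one nearest a peak was used. For the 5 assigned members, the start implied by the authors' distance equalled a RefSeq start. Interval and motif searches were checked on simulated data. The members, lists and motifs were chosen with earlier results of these data known; no p-values were computed. Named genes are the members, their start neighbours and up to 3 list genes with the widest peaks; Rab6a, Stx5a, Zw10 and the 5 genes under other names were added after their values were seen. Python 3.11.15, pandas 2.3.3, NumPy 2.4.6 and matplotlib 3.10.9 were used.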

Additional observations from a re-analysis of the deposited data

How the results depend on the processing

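Of 74 values recomputed, 67 kept their value within the limits used (1.5 times for counts). Several of the 67 could not have moved, so this total does not measure stability. Each of the 5 assigned members had 1 peak, centred within 1000 bp of its start. Its count and width were thus fixed at 1000 bp, at any distance and in sums of widths. Motifs absent from the main window were bound to be absent from a shorter one. Starts implied by the authors exist only for the 5 assigned members, so that setting could not return 6. The count of COG genes with an assigned peak was 5 with windows of 1000 bp, at any distance and with peaks of at least 200 bp, and 4 among the widest 50% of peaks, where Cog7 dropped out. The share of all protein-coding genes under these settings was 15.1%, 17.8%, 14.8% and 9.03%, against 15.9% in the main setting. Cog4, at 379 bp, was just above the 373 bp limit of the widest 50%. The lobe B median of 598 bp became 602 bp with the peak over Cog5, an alternative chosen after seeing the data. ACGT was found at 2 members rather than 6 in the 150 bases nearest the start, a shorter window. The other 5 that moved all fell: 4 related lists among the widest 50% of peaks, where the share of all genes fell too, and CCAAT in the shorter window. By listed starts, also added later, 50 of 100 related genes lay near a peak, against 18.8% of all genes with a listed start. No paired analysis was possible because the deposited list holds no values for single libraries, and for the same reason no replicate was left out. Depth per library is unknown, so a start without a listed peak cannot be read as unbound.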
